A study of Homo sapiens with 4 samples.

Results

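YAP1 and WWTR1 (the protein TAZ), 2 of the 4 human TEAD factors and 6 genes tied to them were followed through RNA sequencing of a drug-resistant colorectal cancer line. The genes were picked by symbol (YAP1, WWTR1, TEAD1, TEAD4, ANKRD1, CCN1, CCN2, AMOTL2, LATS2 and AJUBA). Each matched 1 row, so they are 10 of the 20323 gene rows of the data, and all 10 passed the filter on low counts. Messenger RNA came from HCT-8, a human colorectal adenocarcinoma cell line, in a derivative resistant to 5-fluorouracil (5-FU), a drug that blocks thymidylate synthesis and enters RNA. In 2 libraries the cells carried a plasmid that overexpresses METTL14, a subunit of the complex that writes N6-methyladenosine (m6A) on mRNA. In the 2 controls they carried a negative control plasmid. Both groups also received cycloheximide, which blocks translation elongation, at 100 ug/mL. Cells without it were not analysed here. The genotype labels are NC and OE, and they give no time after transfection, no duration of cycloheximide and no clone.

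YAP1 and TAZ are coactivators with no DNA-binding domain of their own, and they reach their genes through the TEAD family of transcription factors. In the Hippo pathway the kinases STK3 and STK4 activate LATS1 and LATS2, which phosphorylate YAP1 and TAZ and keep them out of the nucleus. ANKRD1, CCN1 and CCN2 are classic target genes, while AMOTL2 and LATS2 are targets that also restrain YAP1, which makes them feedback genes. In the intestine YAP1 is best known for its part in epithelial regeneration and in colorectal tumours.

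METTL14 itself drew 472 and 598 counts in control cells against 7593 and 8516 in cells given its plasmid, which matches the labels. Library totals ran from 19206675 to 20161094 counts. The 2 controls differed more from each other than the 2 METTL14 libraries did (chi-square per degree of freedom 28.8 against 3.29). EPCAM, a surface protein of epithelium, lay between 480 and 500 CPM (counts put on a common library total) in every library. Of 10 colorectal epithelial markers, 8 reached a mean of 1 CPM in the controls and 9 with METTL14, and they summed to 18120 and 11800 CPM against 9113 and 8893 CPM. Of the 9 tested, the keratins KRT8, KRT18 and KRT19 were called lower (log2 fold changes -0.90, -0.92 and -0.39). CDH1 (E-cadherin, 0.74) and the intestinal factor CDX2 (0.44) were called higher, and 4 were not called. That is 55.6% called, near the 55.1% of all tested genes. Summed over 10 fibroblast markers the level was 13.4 and 16.3 CPM in the controls and 20.4 and 18.3 CPM with METTL14. Over 8 endothelial markers it was 0.988 and 0.411 CPM against 1.95 and 1.53 CPM, with 3 of the 8 (KDR, ERG and EMCN) at 0 in each library. The 8 leukocyte markers summed to 6.45 and 7.80 CPM against 31.3 and 29.7 CPM, of which the integrin ITGAX made up 4.84 and 5.44 against 28.3 and 26.0 CPM. Of these 8 markers, CD3E and MS4A1, which define T and B cells, were at 0 in all 4 libraries, and 3 were tested. ITGAX (log2 fold change 2.40) and CD14 (1.75) were called higher and LYZ (0.32) was not. CD14 was scarce, with 6 and 10 counts in the controls against 21 and 35. PTPRC, another of the 8, had at most 1 count in a library and was not tested. The 5 smooth muscle markers summed to 4.01 and 4.93 CPM against 18.6 and 18.6 CPM. The 3 of them tested, ACTA2 (2.48), DES (1.34) and LMOD1 (1.39), were all called higher. With METTL14 the sum held 13.0 and 13.6 CPM of ACTA2. MYH11 and CNN1 were not tested, with at most 3 and 2 counts in a library. Of all tested genes 27.0% were called higher. The part of other cell types in the results below was not tested.

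Promoter sequence is shown for 4 target genes, because they include 2 that fell with METTL14 (ANKRD1 and CCN2) and 2 that did not pass the test (AMOTL2 and LATS2). Each window runs from 250 bases before to 50 bases after the RefSeq transcript start, 5′ to 3′ on the gene's strand (GRCh38.p14, all 4 on the minus strand). Capitals mark the letters GGAATG, the core that TEAD factors bind, and, in ANKRD1, also the AP-1 letters TGATTCA. These windows are ANKRD1 at chr10:90921038-90921337, CCN2 at chr6:131951323-131951622, AMOTL2 at chr3:134375368-134375667 and LATS2 at chr13:21061537-21061836.
ANKRD1: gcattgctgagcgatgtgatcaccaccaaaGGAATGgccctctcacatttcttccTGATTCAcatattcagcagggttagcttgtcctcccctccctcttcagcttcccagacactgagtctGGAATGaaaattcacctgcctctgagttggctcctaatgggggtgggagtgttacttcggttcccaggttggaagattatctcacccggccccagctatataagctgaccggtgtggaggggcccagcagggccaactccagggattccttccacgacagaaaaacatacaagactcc
CCN2: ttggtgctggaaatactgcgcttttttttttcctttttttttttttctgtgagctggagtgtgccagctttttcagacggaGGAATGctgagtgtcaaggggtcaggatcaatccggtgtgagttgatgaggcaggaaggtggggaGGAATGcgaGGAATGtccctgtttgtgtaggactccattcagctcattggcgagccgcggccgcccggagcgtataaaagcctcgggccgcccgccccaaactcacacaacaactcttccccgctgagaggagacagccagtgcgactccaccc
AMOTL2: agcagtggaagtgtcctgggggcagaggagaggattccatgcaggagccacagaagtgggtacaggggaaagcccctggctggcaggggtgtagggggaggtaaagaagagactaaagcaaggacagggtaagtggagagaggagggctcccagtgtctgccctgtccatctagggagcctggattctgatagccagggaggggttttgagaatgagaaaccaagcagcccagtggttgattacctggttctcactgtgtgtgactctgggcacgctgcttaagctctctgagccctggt
LATS2: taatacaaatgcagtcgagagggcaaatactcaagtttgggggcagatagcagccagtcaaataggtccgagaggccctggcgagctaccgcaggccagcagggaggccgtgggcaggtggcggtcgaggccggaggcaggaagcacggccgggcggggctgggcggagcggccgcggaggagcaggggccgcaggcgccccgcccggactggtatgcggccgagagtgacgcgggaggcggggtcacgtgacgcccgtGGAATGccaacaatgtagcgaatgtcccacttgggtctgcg

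The table of RefSeq promoters used here matched 7 of the 10 genes, without TEAD1, TEAD4 and CCN1. Each gene has 1 window, that of the first entry for its symbol, and other starts were not searched. The WWTR1 window (149703224 to 149703523) lies inside the gene, which reaches 149736714 on the minus strand. GGAATG, searched on both strands, occurred 3 times in CCN2 (169, 104 and 95 bases before the start), 2 times in ANKRD1 (220 and 128 bases before), once in YAP1 (162 bases before) and once in LATS2 (from base 10 of the transcript). In all, 4 of these 7 windows held it, where 14.0% of 35116 windows of the same length did. The genes were chosen as YAP1, TEAD and target genes, so this difference in share is not a result. Neither it nor a link of matches to the changes was tested. The AP-1 letters TGANTCA occurred in 1 of the 7, that of ANKRD1, 195 bases before the start, and in 7.71% of all windows. The CArG box, the site of serum response factor (SRF), occurred in none of the 7 and in 1.29% of all windows. No AP-1 match overlapped a TEAD match. A match of letters is a description of these windows and does not show binding.

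The coactivators differed in size of change. WWTR1, which encodes TAZ (ENSG00000018408, GRCh38 chromosome 3, 149517235 to 149736714, minus strand), drew 627 and 750 counts in control cells against 1456 and 1488 under METTL14. Both METTL14 libraries lay about level with each other and well above both controls. The level rose from 35.6 ± 4.15 to 74.2 ± 0.913 CPM (SD, n = 2), 2.09-fold (log2 fold change 1.06, SE 0.118, edgeR adjusted p = 0.000393). YAP1 (ENSG00000137693, chromosome 11, 102110461 to 102233423, plus strand) had 3393 and 3156 counts against 3832 and 4131. Its groups did not overlap, at 169 ± 10.3 and 200 ± 5.10 CPM, and the difference did not pass the test (log2 fold change 0.24, 95% interval 0.01 to 0.48, edgeR adjusted p = 0.07). It passed with library totals alone as scaling (edgeR adjusted p = 0.0218) and with a filter of 5 CPM (0.0408). The log2 fold change of YAP1 was 0.31 without control replicate 1 and 0.18 without control replicate 2. In such a fit the lone control is assumed to vary like the METTL14 pair, which differed less, so no p-value is read from it. Per kilobase of transcript, YAP1 stood at 5.04 and 3.92 times the level of WWTR1 in the controls and at 2.45 and 2.59 times with METTL14. The fold changes of the 2 genes were not tested against each other. In bulk RNA, fewer cells that express a gene and less of its RNA per cell cannot be told apart. Both genes have an annotated antisense neighbour with shared exon sequence on the other strand, and whether counting used strand is not stated, so reads of either strand there cannot be told apart.

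**Figure D1:**
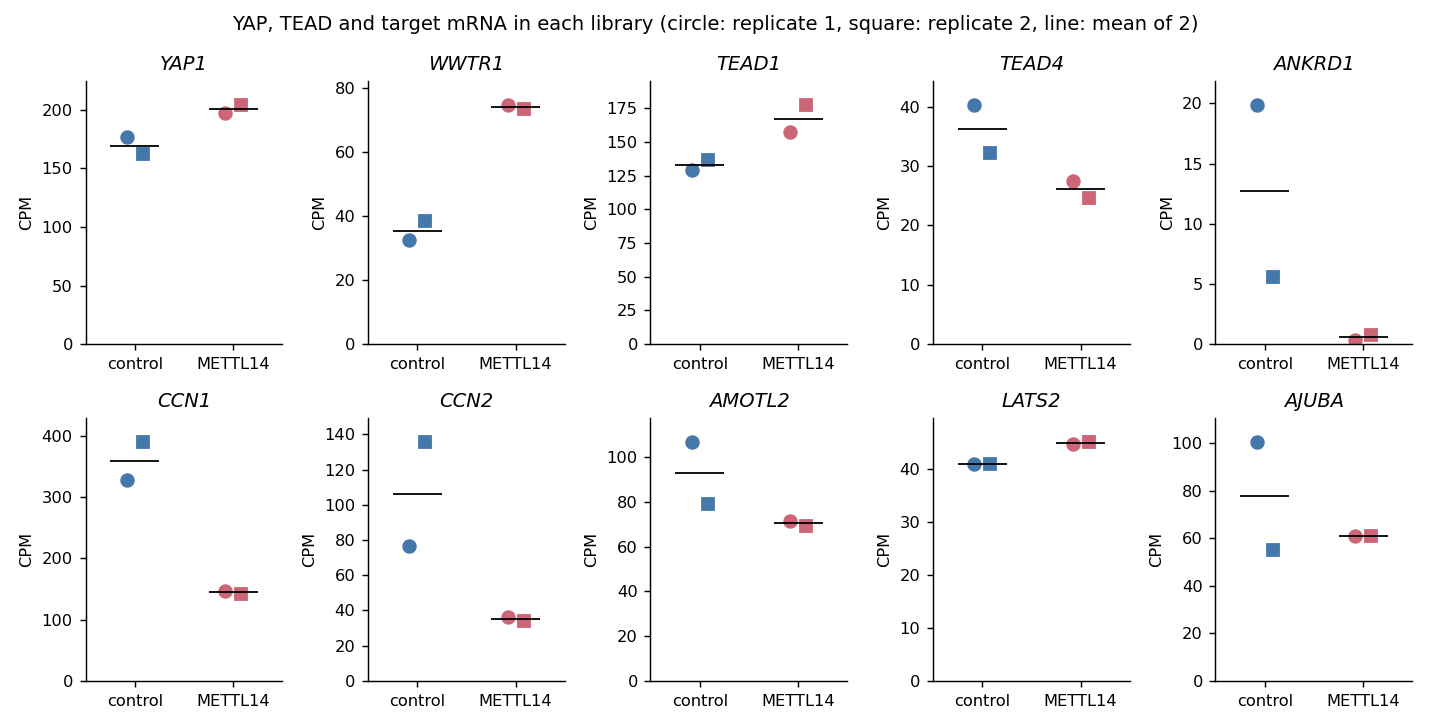
CPM (vertical axes, each from 0) of each of the 10 genes in the 2 control and 2 METTL14 libraries. Points are libraries (circle replicate 1, square replicate 2) and lines are means of 2. WWTR1 stood at 35.6 and 74.2 CPM on average, and the METTL14 libraries of ANKRD1, CCN1 and CCN2 lay below both controls.

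TEAD1 and TEAD4, the DNA-binding partners, moved in opposite directions. TEAD1 (ENSG00000187079, chromosome 11, 12674591 to 12944483, plus strand) drew 2483 and 2661 counts in control cells against 3060 and 3589 under METTL14. It rose 1.26-fold, from 133 ± 5.23 to 167 ± 14.2 CPM (log2 fold change 0.33, SE 0.105, edgeR adjusted p = 0.0307). TEAD4 (ENSG00000197905, chromosome 12, 2959330 to 3040673, plus strand) had 774 and 627 counts against 536 and 497. It fell to 26.0 ± 2.11 CPM from 36.2 ± 5.72 (log2 change -0.48, SE 0.145, edgeR adjusted p = 0.0264). For both genes the groups did not overlap, but the steps are small. Without METTL14 overexpression replicate 1 TEAD1 was at 0.42 (adjusted p = 0.13) and TEAD4 at -0.56 (0.0559), and without replicate 2 they were at 0.24 (0.418) and -0.40 (0.179). In such a fit the lone METTL14 library is assumed to vary like the control pair, which differed more. Neither passed a test against a change of 1.5-fold.

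TEAD2 and TEAD3, the other members of the family, were read from the same fit. TEAD3 rose to 46.1 ± 0.313 CPM from 33.1 ± 3.13 (log2 change 0.48, SE 0.116, edgeR adjusted p = 0.0106). Its call was lost with either METTL14 library left out (0.48, adjusted p = 0.0859, without replicate 1 and 0.49, adjusted p = 0.0738, without replicate 2). TEAD2 stood at 42.5 ± 2.45 and 39.6 ± 1.47 CPM and did not pass the test (log2 fold change -0.10, edgeR adjusted p = 0.459). Of the summed TEAD level per kilobase, TEAD4 made up 34.5 and 30.6% in control cells against 24.6 and 21.5% under METTL14. TEAD1 made up 22.1 and 25.9% against 28.0 and 31.0%. In the controls TEAD4 thus held the highest share of the 4 genes, and with METTL14 TEAD1 did. These shares depend on 1 transcript length per gene and were not tested.

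**Figure D2:**
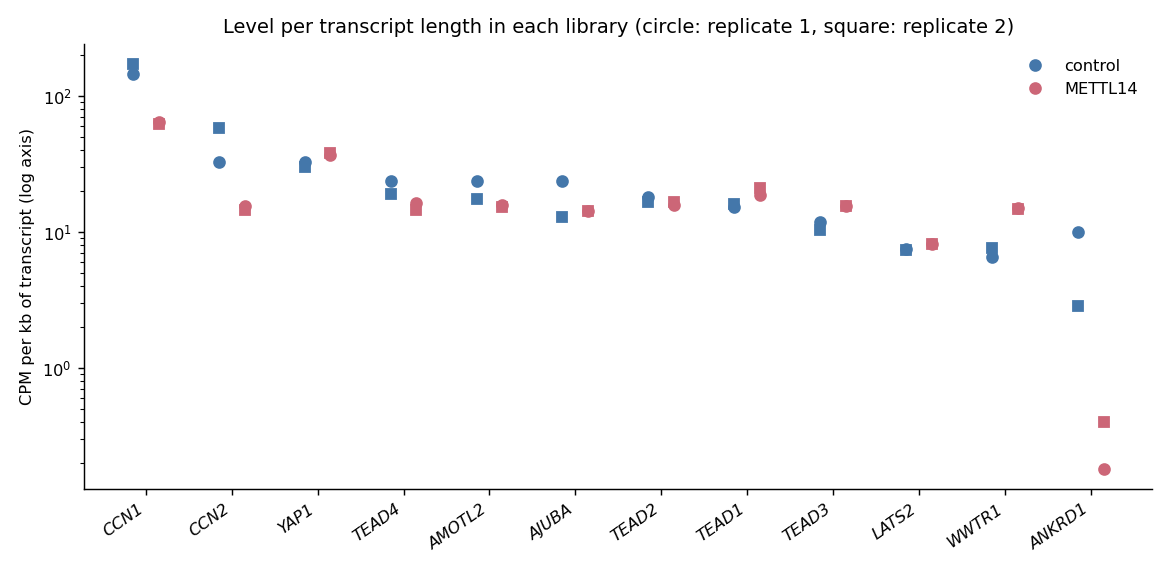
Level per transcript length (vertical axis, CPM per kilobase, log scale) of the 10 genes and of TEAD2 and TEAD3 in each library, ordered by the control mean. Blue is control and red METTL14, circles are replicate 1 and squares replicate 2. CCN1 was highest in both groups and ANKRD1 lowest on average, at 0.182 and 0.399 CPM per kilobase with METTL14.

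The 3 classic targets were lower with METTL14. CCN1 (ENSG00000142871, chromosome 1, 85580761 to 85583962, plus strand), a secreted matrix-associated protein also known as CYR61, drew 6307 and 7605 counts in control cells against 2864 and 2863 under METTL14. It fell from 359 ± 44.0 to 144 ± 4.03 CPM, 2.49-fold (log2 fold change -1.32, SE 0.116, edgeR adjusted p = 0.00019). The METTL14 libraries were nearly equal, and with 1 library left out the log2 fold change ran from -1.43 to -1.19.

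CCN2 (ENSG00000118523, chromosome 6, 131948176 to 131951373, minus strand), or CTGF, a related secreted factor linked to fibrosis, drew 1468 and 2647 counts in control cells against 706 and 688 under METTL14. Control replicate 2 was the high library, and the lower control was still above both METTL14 libraries. The level fell from 106 ± 42.1 to 35.1 ± 1.61 CPM, 3.02-fold (log2 fold change -1.59, SE 0.246, edgeR adjusted p = 0.00149). The value was -1.12 without control replicate 2 and -1.95 without control replicate 1. An annotated gene on the other strand, with no row in the data, shares 195 bases of exon with CCN2.

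ANKRD1 (ENSG00000148677, chromosome 10, 90912096 to 90921276, minus strand), an ankyrin repeat protein of muscle known as a sensitive YAP1 target, drew 382 and 109 counts in control cells against 7 and 16 under METTL14. The controls differed strongly from each other, yet both lay above both METTL14 libraries. The mean was 12.7 ± 10.1 CPM against 0.575 ± 0.305 CPM (log2 fold change -4.44, SE 0.735, 95% interval -6.19 to -2.70, edgeR adjusted p = 0.00235). The size is uncertain: it was -3.26 without control replicate 1 and -5.09 without control replicate 2. Without METTL14 overexpression replicate 1 it was -3.995 (adjusted p = 0.307) and without replicate 2 -5.12 (0.16), so that the call was lost and the fold stayed large.

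The feedback genes and AJUBA did not pass the test. AMOTL2 (ENSG00000114019, chromosome 3, 134355874 to 134375479, minus strand), an angiomotin that binds YAP1, drew 2054 and 1540 counts in control cells against 1389 and 1402 under METTL14. Its METTL14 libraries lay below both controls, at 70.3 ± 1.48 against 92.9 ± 19.7 CPM (log2 fold change -0.40, 95% interval -0.75 to -0.06, edgeR adjusted p = 0.0514). It passed with DESeq2 (adjusted p = 0.0453) and, in edgeR, with no filter (0.0388). It also passed once a trend on transcript length and GC content was taken out (log2 fold change -0.68, edgeR adjusted p = 0.00453). The value was -0.17 without control replicate 1 and -0.61 without control replicate 2.

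LATS2 (ENSG00000150457, chromosome 13, 20973032 to 21061547, minus strand), the kinase, had 788 and 796 counts against 870 and 914. The libraries of each group were close and the groups did not overlap, at 40.9 ± 0.0985 and 44.9 ± 0.324 CPM. The difference did not pass the test (log2 fold change 0.13, 95% interval -0.11 to 0.38, edgeR adjusted p = 0.301), and its sign turned with the length and GC trend removed (-0.13). LATS1, its paralog, stood at 0.503 and 0.49 times the LATS2 level per kilobase in the controls and at 0.482 and 0.485 times with METTL14.

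AJUBA (ENSG00000129474, chromosome 14, 22971174 to 22982642, minus strand), a LIM-domain protein of cell junctions that binds and restrains LATS kinases, drew 1934 and 1073 counts in control cells against 1184 and 1237 under METTL14. It is the only gene of the 10 whose groups overlapped, since control replicate 2 was the lowest library and control replicate 1 the highest. The difference did not pass the test (log2 fold change -0.35, 95% interval -0.94 to 0.23, edgeR adjusted p = 0.266). It was 0.15 without control replicate 1 and -0.73 without control replicate 2, so that its sign depends on which control is used. AJUBA shares 50 bases of exon with AL132780.3, which has its own row, so reads there may be divided between them.

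**Figure D3:**
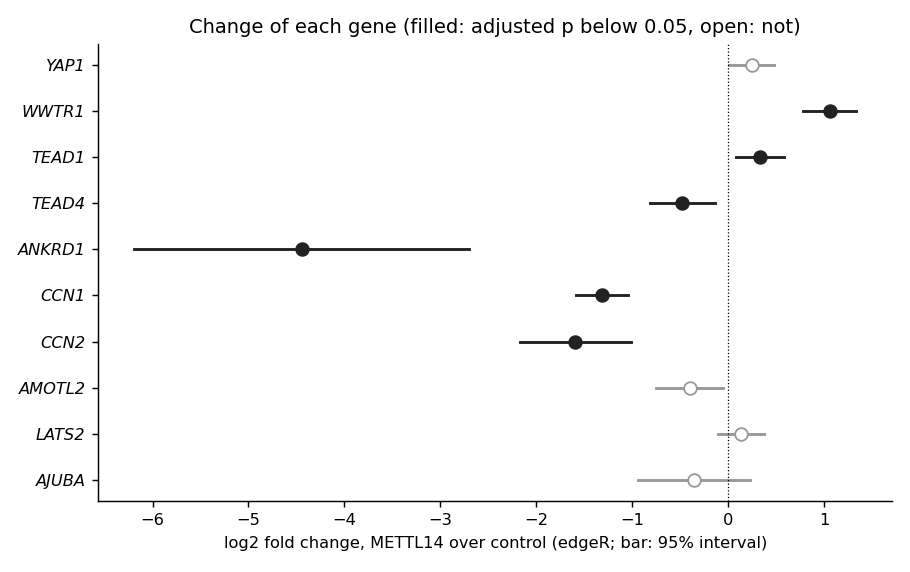
Log2 fold change of METTL14 over control (horizontal axis) of each gene with its 95% interval from edgeR, filled where the adjusted p is below 0.05. WWTR1 and TEAD1 lie above 0, TEAD4, ANKRD1, CCN1 and CCN2 below it, and the interval of ANKRD1 runs from -6.19 to -2.70.

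Counted together, 2 of the 10 genes were called higher (27.0% of 12700 tested genes were) and 4 lower (28.1% were). In either direction 6 of 10 were called, where 55.1% of all tested genes were, so that the share is near the background. The groups did not overlap for 9 of 10, against 79.8% of all tested genes. METTL14 was above the controls for 4 of them (39.8% of tested genes) and below for 5 (40.0%). The median log2 fold change was -0.38 over the 10 genes and -0.01 over all tested genes. Without METTL14 overexpression replicate 1 or without replicate 2, the calls of WWTR1, CCN1 and CCN2 held and those of TEAD1, TEAD4 and ANKRD1 were lost. WWTR1, CCN1, CCN2 and ANKRD1 passed a test against a change of 1.5-fold. The libraries are described as independent experiments, but nothing in the labels names separate cultures, so that p-values measure the spread between these libraries only.

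**Figure D4:**
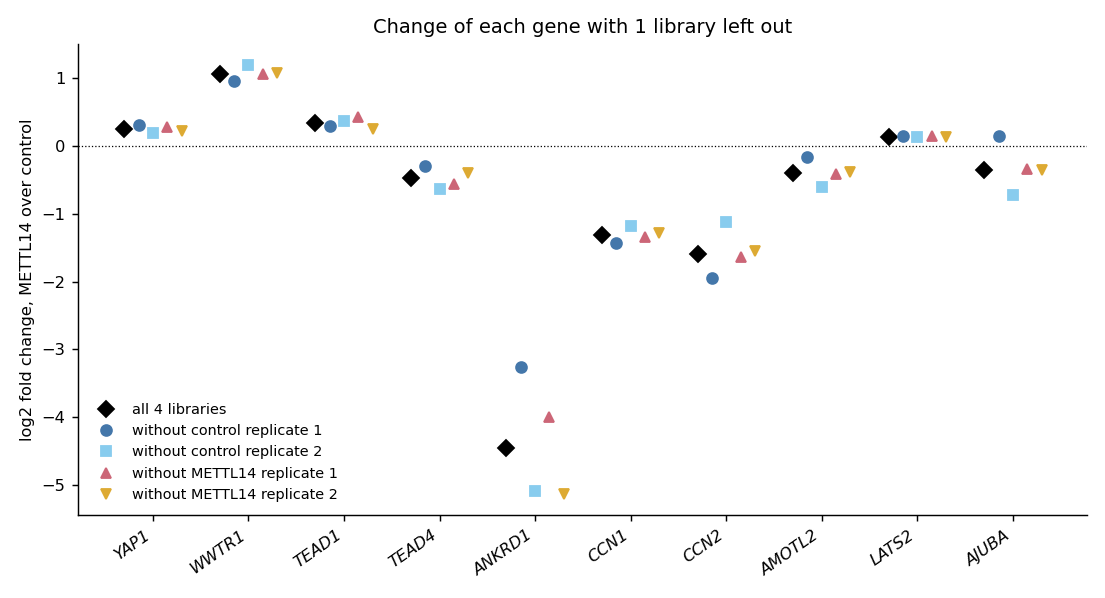
Log2 fold change of METTL14 over control (vertical axis) of each gene with all 4 libraries (diamond) and with 1 library left out (other symbols). AJUBA lies at 0.15 without control replicate 1 and at -0.73 without control replicate 2, and it is the only gene shown whose sign changes.

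Levels were compared between genes per kilobase of the longest protein-coding transcript. In the controls CCN1 was highest (157 ± 19.2 CPM per kilobase), followed by CCN2 (45.4 ± 18.0) and YAP1 (31.4 ± 1.90), whose libraries overlapped. TEAD4 (21.4), AMOTL2 (20.6), AJUBA (18.3) and TEAD1 (15.7) came next, and neighbours in that order overlapped. LATS2 (7.43), WWTR1 (7.07) and ANKRD1 (6.43 ± 5.10) were lowest, again with overlap. With METTL14 the order was CCN1 (63.0 ± 1.76), YAP1 (37.1 ± 0.945) and TEAD1 (19.7 ± 1.68), with no overlap between them. AMOTL2, TEAD4, CCN2, WWTR1 and AJUBA followed between 14.3 and 15.6 CPM per kilobase, with overlap between neighbours except WWTR1 and AJUBA, and then LATS2 (8.15) and ANKRD1 (0.291). CCN2 thus went from above YAP1 on average to about the level of WWTR1.

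The control libraries differed in a way that touches several of these genes. Control replicate 2 held more of the AP-1 factors FOS (1160 against 318 counts), JUN (1064 against 324), FOSB (646 against 131) and ATF3 (450 against 107) than control replicate 1. AP-1 factors often bind beside TEAD factors. CCN1 and CCN2 were also higher in control replicate 2, while ANKRD1, AJUBA, AMOTL2 and TEAD4 were higher in control replicate 1. Of the cytoskeletal genes, ACTB (beta-actin) had 88371 counts in control replicate 1 and 54870 in control replicate 2. The part of this difference between the controls in the results was not tested. CCN1 and CCN2 were lower with METTL14 against either control alone.

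Of 8 tested AP-1 factors, 2 were called higher, 1 lower and 5 not (median log2 fold change -0.16), or 37.5% called against 55.1% of all tested genes. JUND rose to 204 ± 13.7 CPM from 72.4 ± 16.8 (log2 change 1.49, SE 0.162) and FOSL2 from 79.4 ± 1.18 to 157 ± 2.25 CPM (0.98, SE 0.0942). FOSL1 fell from 75.5 ± 3.55 to 44.1 ± 2.15 CPM (-0.78, SE 0.104). FOS (0.38), JUN (0.57), FOSB (-0.97), JUNB (-0.71) and ATF3 (-0.91) did not pass the test. For each of these 5 the libraries of the groups overlapped. Without control replicate 1 FOS was at -0.26 and JUN at -0.036. Without control replicate 2 FOSB was at 0.58 and ATF3 at 0.46. The sign of each of these thus depended on which control was left out. The number of calls over all genes also moved with the library left out.

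Of the 8 tested genes in a list of other TEAD factors and cofactors, edgeR called 5 higher and 0 lower (median log2 fold change 0.48). That is 62.5% called, near the 55.1% of all tested genes, and the balance of directions was not tested. At an unadjusted p below 0.05 the number lower was also 0. DESeq2 called 4 higher and 0 lower, without VGLL3 (adjusted p = 0.0783), and limma-voom 5 and 0. VGLL4, which competes with YAP1 for TEAD, rose to 82.3 ± 3.10 CPM from 55.2 ± 2.07 (log2 change 0.58, SE 0.098). IRF2BP2, a transcriptional corepressor, rose from 72.6 ± 8.55 to 140 ± 0.907 CPM (0.94, SE 0.113), and WBP2, a WW-domain binding partner of YAP1, from 98.7 ± 3.03 to 138 ± 1.81 CPM (0.48, SE 0.0945). VGLL3 was scarce, with 9 and 15 counts against 33 and 33 (1.41, SE 0.42). Without its METTL14 libraries, where it was higher, VGLL3 would not have passed the filter, so its call depends in part on the filter. The filter of 5 CPM left it out. RUNX1 (0.29) and RUNX2 (-0.16) did not pass the test. VGLL1 and VGLL2 had no count in any library, and RUNX3 had at most 11. Without METTL14 overexpression replicate 1 or without replicate 2 some of these calls were lost, among them those of VGLL3 and WBP2.

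Of 16 tested genes of the kinase cascade upstream, 4 were called higher, 1 lower and 11 not (median log2 fold change 0.25). That is 31.2% called beside 55.1% of all tested genes, and the difference in share was not tested. With the replicate number as a block 7 were higher and 2 lower. STK4, the MST1 kinase, rose to 55.3 ± 1.21 CPM from 40.0 ± 3.42 (log2 change 0.47, SE 0.112) and TAOK3, a kinase of the TAO family, from 12.4 ± 3.06 to 19.4 ± 0.461 CPM (0.64, SE 0.185). FRMD6, a FERM-domain protein of the pathway, rose from 1.34 ± 0.572 to 4.49 ± 0.48 CPM (1.74, SE 0.354). NUAK2, a kinase that is itself a YAP1 target, fell from 16.0 ± 2.60 to 9.46 ± 1.15 CPM (-0.76, SE 0.179). Fewer were called higher with either METTL14 library left out and more with either control left out, and calls over all genes moved as well.

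Of 15 tested junction, polarity and scaffold genes, 5 were called higher and 3 lower (median log2 fold change 0.01), or 53.3% against 55.1% overall. FAT1, a giant protocadherin that feeds into Hippo signalling, rose to 7916 ± 298 CPM from 3583 ± 18.7 (log2 change 1.14, SE 0.0921). PATJ, a polarity scaffold (0.58, SE 0.112), and PTPN14, a phosphatase that binds YAP1 (0.56, SE 0.0953), also rose. YWHAE, a 14-3-3 protein of the family that holds phosphorylated YAP1 in the cytoplasm, fell from 914 ± 7.70 to 587 ± 4.03 CPM (-0.64, SE 0.0924). AMOT and AMOTL1 did not pass the filter, with at most 3 and 7 counts in a library, so AMOTL2 was the angiomotin measured here. With either METTL14 library left out, fewer of these genes were called in each direction.

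Of 14 tested genes of STRIPAK, the phosphatase complex that opposes STK3 and STK4, 2 were called higher, 2 lower and 10 not (median log2 fold change -0.08), which is 28.6% called beside the same 55.1%. STK24 rose (log2 fold change 0.59, SE 0.142) and so did STRN4 (0.46, SE 0.121). PPP2CA, the catalytic phosphatase subunit (-0.40, SE 0.093), and STRIP2 (-0.41, SE 0.141) fell. With the length and GC trend removed STK24 (0.29, adjusted p = 0.138) and STRN4 (0.14, adjusted p = 0.219) were not called. Fewer of these genes were called with either METTL14 library left out, and more were called lower without control replicate 2.

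A wider list of YAP1 and TAZ targets, those of a known pan-cancer signature that are not among the 10 genes, moved in both directions. Of its 17 genes 14 were tested, 6 were called higher, 3 lower and 5 not (median log2 fold change 0.27). The share called was 64.3%, against 55.1% of all tested genes. CCDC80, a matrix protein, rose to 31.9 ± 1.47 CPM from 6.06 ± 2.46 (log2 change 2.39, SE 0.244). IGFBP3, which binds insulin-like growth factors, rose from 16.9 ± 2.07 to 65.6 ± 0.0005 CPM (1.96, SE 0.126), and NT5E, the ectonucleotidase CD73, from 40.7 ± 12.7 to 142 ± 1.57 CPM (1.80, SE 0.194). MYOF, a membrane repair protein, fell from 474 ± 79.4 to 270 ± 1.43 CPM (-0.81, SE 0.129). The remaining lower calls were F3 (tissue factor), named after its values were seen, at -0.76 (SE 0.175), and NUAK2. PTPN14 and NUAK2 stand in this list and in one of the lists above. CCN3, the other CCN gene that passed the filter, rose from 56.1 ± 7.21 to 87.0 ± 1.52 CPM (0.63, SE 0.116), opposite in sign to CCN1 and CCN2.

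CCN1, CCN2 and ANKRD1 are also described as targets of SRF and its actin-sensing coactivators, the MRTF proteins, so that list was read beside them. Of 20 tested genes, SRF, MRTFA and MRTFB among them, 9 were called lower, 2 higher and 9 not (median log2 fold change -0.35). Of all tested genes 28.1% were called lower and 27.0% higher. At 55% the share called was that of all tested genes (55.1%). ACTB fell to 1341 ± 86.8 CPM from 3706 ± 1259 (log2 change -1.47, SE 0.213) and TPM1, a tropomyosin, from 69.4 ± 7.53 to 37.6 ± 0.17 CPM (-0.88, SE 0.116). MRTFB (-0.47, SE 0.114) and SRF itself (-0.58, SE 0.148) fell too. MRTFA was at 0.41 and did not pass the test (edgeR adjusted p = 0.091). ACTA2, smooth muscle actin and also one of the smooth muscle markers above, rose from 2.38 ± 0.343 to 13.3 ± 0.416 CPM (2.48, SE 0.199). Calls in both directions were fewer with either METTL14 library left out, and higher calls were more numerous without control replicate 1. All edgeR adjusted p-values of genes called in these lists were below 0.05.

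**Figure D5:**
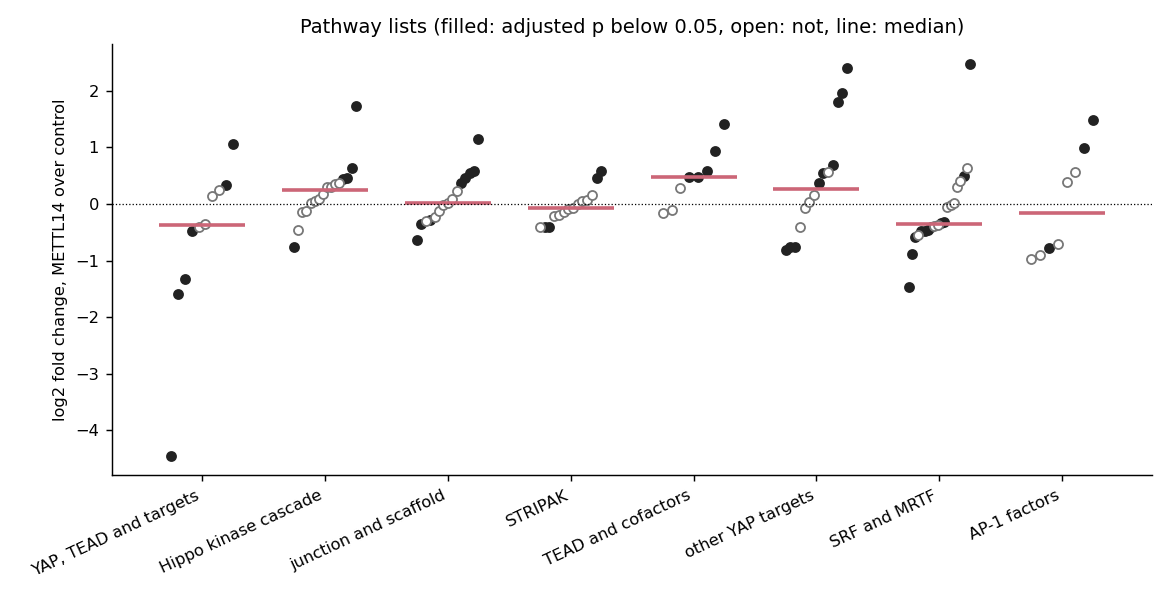
Log2 fold change of METTL14 over control (vertical axis) of every tested gene of the 10 and of 7 pathway lists. Filled points have an adjusted p below 0.05, open points do not, and red lines are medians, -0.38 for the 10 genes, 0.48 for TEAD cofactors and 0.27 for the other YAP targets.

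The transcripts of the 10 genes differed in length and in the letters GGACT, the form in DNA letters of a motif that the m6A writer complex favours. The longest protein-coding transcript ran from 1690 bases in TEAD4 to 8477 bases in TEAD1, and the median of tested genes was 3359 bases. GGACT occurred 5 times in CCN1, or 2.18 times per kilobase, where the median over tested genes was 0.948. It occurred 8 times in LATS2 (1.45 per kilobase), 3 times in WWTR1 (0.596), 1 time in ANKRD1 (0.505) and not in CCN2. The 3 targets that fell thus lay at both ends of the range. No m6A was measured in these libraries.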

How the data were processed

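Poly(A) RNA was sequenced from 4 libraries, 2 per group, grouped by their titles. Trizol RNA went through a NEBNext Ultra kit and an Illumina NovaSeq run, per the labels' protocols. The submitters' processing notes list fastp, Bowtie2, HISAT2, StringTie, RSEM (none with a version) and hg18. Each deposited file gives the authors' expected counts by gene, with no normalization (10.8 to 11.6% not whole, tolerance 0). They were rounded to whole numbers here. Of 20323 gene identifiers 20171 are also in GENCODE 29, so positions, exon overlaps and transcript lengths are GENCODE's on GRCh38, promoters RefSeq's on GRCh38.p14, and the build behind the counts is unclear. Rows with no symbol (102) held at most 0.0366% of counts.

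The test was that of edgeR 4.0.16 under R 4.3.3: filterByExpr at a minimum count of 10, TMM scaling, the robust quasi-likelihood test and Benjamini-Hochberg adjustment over 12700 genes at 0.05. SE is the log2 fold change over the square root of F. CPM values carry the TMM factors. The smallest p of an exact permutation test here would be 33.3%, so p-values rest on spread shared over genes (common biological coefficient of variation 10.8%). In counts simulated with a common spread, the procedure recovered 44% of 1.5-fold changes and 86% of 2-fold changes. Of 173 calls there, 9 fell on unchanged genes. The groups of these data differ in spread, so these shares may not hold for them.

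The members and lists were chosen with earlier results of these data known. Named are the 10 genes, METTL14, up to 4 called genes of smallest p per pathway list, all TEAD, AP-1 and CCN genes tested, and some markers. F3, SRF and MRTFA were named after their values were seen. Alternatives were size factors or the whole test of DESeq2 1.42.0, library totals, limma-voom (limma 3.58.1), a replicate block, no filter, at least 5 CPM in 2 libraries, glmTreat at 1.5-fold, a fit without the robust step, and each library left out. Removal of a loess trend on length and GC (12653 genes) was chosen after seeing the data. Other work used Python 3.11.15, pandas 2.3.3 and numpy 2.4.6.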

Additional observations from a re-analysis of the deposited data

How the results depend on the processing

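Of the 140 recalculations of the 10 genes under 14 alternatives, 120 kept direction and side of the threshold, 10 gained a call, 8 lost one and 2 changed sign. CCN1, CCN2 and WWTR1 kept their calls in each alternative that used all 4 libraries. The sign changes were AJUBA without control replicate 1 (range with 1 library left out -0.73 to 0.15) and LATS2 once the length and GC trend was removed (-0.13). Among AP-1 factors the sign changed for FOS (-0.26 to 1.58) and JUN (-0.036 to 1.65) without control replicate 1, and for FOSB (-1.70 to 0.58) and ATF3 (-1.59 to 0.46) without control replicate 2. Leaving out a library leaves its arm with 1, assumed to vary like the pair of the other group. The control pair differed more than the METTL14 pair, so calls gained or lost in these fits depend on that assumption. The counts of gained and lost calls above include them.

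Against a 1.5-fold change glmTreat called 1416 genes higher and 1357 lower. Of the 10 genes it called 1 higher (WWTR1), and it called CCN1, CCN2 and ANKRD1 lower. Of the kinase cascade it called 1 higher and 0 lower, of the junction and scaffold list 1 and 0, and of STRIPAK 0 and 0. Of TEAD cofactors it called 1 higher, of the other YAP targets 3 and 0, of SRF targets 1 and 2, and of AP-1 factors 0 lower. STRIPAK genes called lower were 1 with library totals, DESeq2 and the 5 CPM filter, and 4 after removal of the trend. That removal also gave 2 lower calls in the kinase cascade and 1 higher among SRF targets, and no filter gave 2 lower calls in the cascade.

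With 1 library left out, higher and lower calls ranged over 2306 to 4450 and 2305 to 4575 for all genes, 1 to 3 and 2 to 6 for the 10 genes, 1 to 7 and 0 to 3 for the kinase cascade, 3 to 6 and 1 to 4 for the junction list, 1 to 3 and 0 to 4 for STRIPAK, 1 to 6 and 3 to 12 for SRF targets, and 2 to 6 and 1 to 5 for AP-1 factors. TEAD cofactors had 2 to 5 higher calls.

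The replicate numbers give no shared culture or day, and deviations of same-numbered libraries had a correlation of 0.11 over 12056 genes. With the replicate block 7 kinase cascade genes were higher and 2 lower, 4 SRF targets were higher, AMOTL2 (adjusted p = 0.00341) gained a call and all genes called numbered 3793 higher and 3903 lower.

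ANKRD1 with METTL14 (7 and 16 counts) and VGLL3 in the controls (9 and 15) rest on few counts. So do CD14 (6 and 10), LMOD1 (13 and 21), FRMD6 (18 and 34) and DES (21 and 23) in the controls.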

Other observations

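Genes called higher with METTL14 had longer transcripts (median 3884 bases) than genes called lower (2792 bases), and a higher GC content (medians 53.0 and 46.4%). TEAD4, ANKRD1, CCN1 and CCN2 have transcripts of 1690 to 2339 bases, and TEAD1 and WWTR1 of 8477 and 5030 bases. With the trend on length and GC removed the 6 calls among the 10 genes stood, at 1.20 for WWTR1, 0.38 for TEAD1, -0.43 for TEAD4, -4.14 for ANKRD1, -1.21 for CCN1 and -1.52 for CCN2.

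Among the epithelial markers, KRT8, a keratin of simple epithelium, fell to 4518 ± 43.7 CPM from 8446 ± 2687 (log2 change -0.90, SE 0.195), and its controls stood at 10346 and 6546 CPM. KRT18 fell from 4147 ± 1541 to 2187 ± 50.4 CPM (-0.92, SE 0.224) and KRT19 from 1508 and 1225 CPM to 1083 and 1007 CPM (-0.39, SE 0.124). CDH1 rose from 305 ± 18.3 to 511 ± 15.1 CPM (0.74, SE 0.0987) and CDX2 from 94.3 ± 21.7 to 128 ± 4.28 CPM (0.44, SE 0.156). Of 10 fibroblast markers 5 were tested, 2 were called higher and 3 not, or 40% called against 55.1% of all tested genes. PDGFRB rose from 2.30 ± 0.38 to 5.98 ± 0.70 CPM (1.38, SE 0.253) and COL1A1 from 6.48 ± 0.486 to 9.20 ± 0.718 CPM (0.50, SE 0.179). COL1A2 (-0.79, adjusted p = 0.13) and COL3A1 (-0.90, adjusted p = 0.1) had both METTL14 libraries below both controls and were not called, DCN was at 0.55, and LUM, left out by the filter, had 8 and 10 counts against 4 and 5.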
